A study of Mus musculus with 4 samples.

Results

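Haptoglobin and other acute-phase genes were followed in NIH-3T3 cells, an established mouse embryonic fibroblast line, after treatment with small molecules made to activate chaperone-mediated autophagy (CMA), the delivery of single cytosolic proteins to lysosomes. The members were 10 genes of 36838 gene names on the arrays, with 12 probes of 55378, and they were chosen from array differences of these samples that were already known. They are Hp, Lcn2, Saa3, C3, Cp, Serpina3n, Steap4, Il6, Cebpb and Cebpd. The counts and values below therefore describe the arrays and test nothing.

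Total RNA of 4 wild-type cultures was hybridised to 4 one-colour Agilent arrays, 1 per group. Confluent cells were left untreated or received AR7, CA39 or CA77, each at 20 µM in DMSO, and were harvested after 24 h. No DMSO is named for the control, so a difference shared by all 3 treated cultures cannot be told apart from one of the solvent. No group had a replicate culture, so no test was possible and no p-value is given.

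Acute-phase genes encode proteins whose synthesis changes during infection or injury. In liver, and also in fibroblasts, fat cells and epithelia, interleukin 6 acts through STAT3, and interleukin 1 acts through NF-κB. The transcription factors C/EBPβ and C/EBPδ, encoded by Cebpb and Cebpd, act at many of the same promoters. The members fall into 4 roles: the cytokine Il6 with the regulators Cebpb and Cebpd, binders of haemoglobin, iron carriers and copper (Hp, Lcn2, Cp and the metalloreductase Steap4), the complement component C3, and the secreted proteins Saa3 and Serpina3n.

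The promoter windows of 4 members that differed between arrays are printed here because they hold the binding motif of the C/EBP factors measured on the same arrays. They come from RefSeq (GRCm38.p6) and run from 250 bases before to 50 bases after the start site, 5′ to 3′ on the gene's own strand. Capitals mark matches to the C/EBP motif TTNNGNAA, where N is any base, on either strand. C3 lies at chr17:57228087-57228386 on the minus strand, Lcn2 at chr2:32387690-32387989 on the minus strand, Il6 at chr5:30012864-30013163 on the plus strand and Saa3 at chr7:46715627-46715926 on the minus strand.
C3: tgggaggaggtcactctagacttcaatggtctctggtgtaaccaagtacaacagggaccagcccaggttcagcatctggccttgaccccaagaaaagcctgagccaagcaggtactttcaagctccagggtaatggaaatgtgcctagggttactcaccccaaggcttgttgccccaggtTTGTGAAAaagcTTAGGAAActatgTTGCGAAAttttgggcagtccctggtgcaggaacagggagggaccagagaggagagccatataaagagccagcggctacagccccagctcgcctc
Lcn2: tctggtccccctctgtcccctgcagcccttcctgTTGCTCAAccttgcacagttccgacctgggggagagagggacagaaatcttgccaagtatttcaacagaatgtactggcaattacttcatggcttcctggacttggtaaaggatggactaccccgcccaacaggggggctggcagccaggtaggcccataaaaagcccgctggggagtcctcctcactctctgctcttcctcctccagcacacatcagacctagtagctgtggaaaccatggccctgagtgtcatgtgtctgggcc
Il6: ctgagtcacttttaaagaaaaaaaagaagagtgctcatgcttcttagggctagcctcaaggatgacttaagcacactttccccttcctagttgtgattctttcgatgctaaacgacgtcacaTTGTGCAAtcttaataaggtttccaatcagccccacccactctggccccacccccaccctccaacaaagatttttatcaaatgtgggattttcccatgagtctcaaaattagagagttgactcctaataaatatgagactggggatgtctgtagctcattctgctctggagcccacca
Saa3: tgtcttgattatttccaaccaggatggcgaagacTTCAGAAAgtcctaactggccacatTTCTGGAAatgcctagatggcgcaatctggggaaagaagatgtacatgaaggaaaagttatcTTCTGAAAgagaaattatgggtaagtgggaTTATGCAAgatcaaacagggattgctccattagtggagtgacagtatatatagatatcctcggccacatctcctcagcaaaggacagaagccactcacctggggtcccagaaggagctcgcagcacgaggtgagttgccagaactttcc

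In C3 the 3 matches lay close together, with first bases 70, 58 and 45 bases before the start site. Lcn2 held 1 match, 216 bases before the start site. Il6 held 1 match at 128 bases, and a match to the NF-κB motif (GGG, any 3 bases, then TTCC, on either strand) began 44 bases before the start site. Saa3 held 4 C/EBP matches, at 216, 191, 129 and 99 bases. The window table held 9 windows of 8 members, all except Hp and Cebpd. Of these, 7 members held a C/EBP match, as did 40.7% of all 32851 windows of the same length, so the match is common. The exception was Cebpb. The NF-κB motif was found in Steap4, Il6 and Serpina3n and in 5.56% of all windows. A STAT motif, TTCNNNGAA, was found in Steap4 alone among the members and in 8.30% of all windows. In Steap4 a C/EBP match and the NF-κB match overlapped. These matches are descriptions of the sequence and do not show binding.

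**Figure D1:**
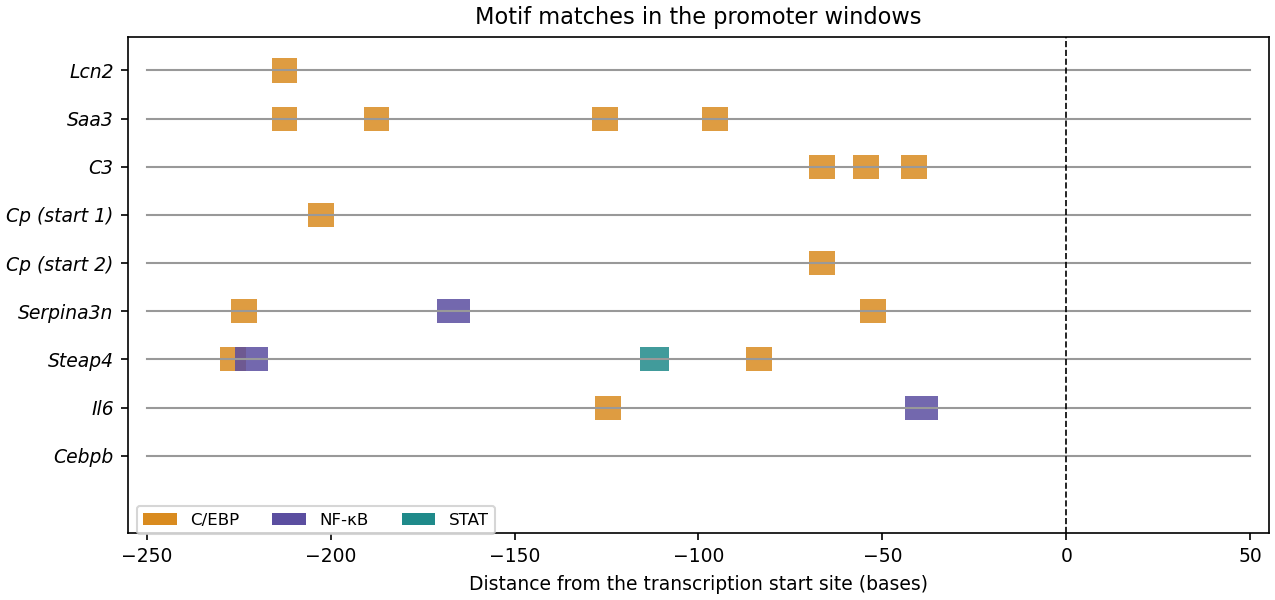
Positions of motif matches along the promoter windows of members, with the distance from the transcription start site in bases on the x axis and 1 line per window. The 3 C/EBP matches of C3 lie between 70 and 38 bases before the start site, while the 4 of Saa3 are spread from 216 to 92 bases before it.

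Levels are given as normalized signal on the log2 scale, so that a difference of 1 is 2-fold, and they compare arrays for 1 probe, not 1 gene with another. Repeat measurements came only from spots within an array, and the tolerance was set from 399 probes printed 10 times on each array. From their spread, differences within 0.16 (log2) were treated as within the measurement tolerance. This is 1 typical SD of a difference of 2 single spots, so spot error alone can exceed it. It does not cover the error between cultures. Median net signal was 138 to 167.5 scanner units, and 52.2% to 69.7% of probes were well above background, most on the untreated array. All arrays were on 1 slide, with the untreated array in slide row 1 and the treated arrays in row 2, and CA77 was read in scan 2 and the others in scan 1. Slide row cannot be told apart from treatment in any difference from untreated, nor scan in any difference that involves CA77, whereas AR7 and CA39 shared both slide row and scan. Around the member spots, the median difference of neighbouring probes from the untreated array lay between -0.09 and 0.13.

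A gene was counted as past 2-fold when its brightest probe differed by at least 1 (log2) and was well above background on at least 1 of the arrays compared. Steap4 was well above background on no array, which left 9 members. AR7 and CA77 gave the same division of the members: Serpina3n was higher, Hp and Saa3 were lower, and the other 6 compared did not pass 2-fold. With AR7, 1 member was higher and 2 were lower, beside 1.8% and 0.388% of 27855 gene names. With CA77, 1 was higher and 2 were lower, beside 1.93% and 0.548% of 28126. With CA39, Hp, Il6 and Cebpd were higher and Lcn2 and C3 were lower, so 3 were higher and 2 lower, beside 3.69% and 1.16% of 27894. Since the members were chosen from these differences, nothing is read from the counts. Over the 9 members, with differences of no known size set to 0, the median difference was -0.09 (AR7), 0.06 (CA39) and -0.47 (CA77), while that over all gene names was 0.00, 0.00 and -0.01.

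**Figure D2:**
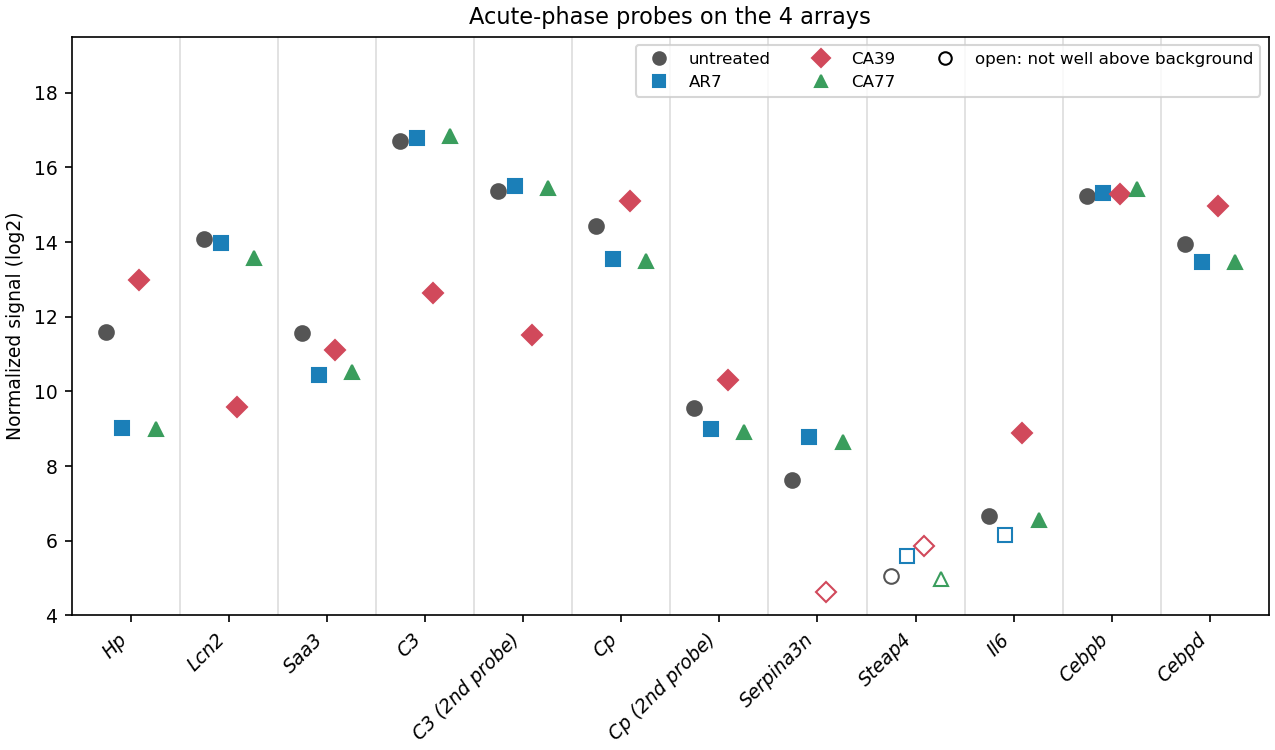
Normalized signal (log2, y axis) of each member probe (x axis) on the untreated, AR7, CA39 and CA77 arrays, with open symbols where the probe was not well above background. For Hp the CA39 array is highest at 12.98 and AR7 and CA77 lie together near the bottom, whereas for Lcn2 and C3 the CA39 array alone is low.

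Hp, which encodes haptoglobin, the plasma protein that captures free haemoglobin, split the compounds in direction. Its level was 11.60 in untreated cells, 9.01 with AR7, 12.98 with CA39 and 8.98 with CA77. Both AR7 and CA77 were thus low and the CA39 array was high. The net signals behind these levels were 3123.5, 573, 8284 and 462 scanner units, in the same order. Hp was 6.04-fold lower than untreated with AR7 and 6.14-fold lower with CA77, and 2.59-fold higher with CA39. Among gene names measured on both arrays, it had the 3rd lowest difference of 21654 with AR7 and the 3rd lowest of 24364 with CA77, and the 419th highest of 21393 with CA39. AR7 and CA77 differed from each other by 0.02 (log2), within the tolerance. CA39 was 15.65-fold above AR7 and 15.93-fold above CA77.

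Lcn2 encodes lipocalin 2, which binds bacterial siderophores, the small iron carriers of microbes. Its level was 14.07 in untreated cells, 13.98 with AR7, 9.59 with CA39 and 13.57 with CA77. Only the CA39 array was far from the others, with a net signal of 827 scanner units against 17440, 17099 and 11104 on untreated, AR7 and CA77. Lcn2 was 22.41-fold lower with CA39 than in untreated cells, the 6th lowest difference of 21393. With AR7 it lay within the tolerance of untreated (-0.09), and with CA77 it was lower by 0.50 (log2). Of the 8 members measured on both arrays, Lcn2 was the 1 for which AR7 and CA77 differed beyond the tolerance, by 0.41. The siderophore receptor Slc22a17, which takes up lipocalin 2, had levels of 8.48, 8.08, 7.90 and 7.80 on untreated, AR7, CA39 and CA77.

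Cp, which encodes the copper-carrying ferroxidase ceruloplasmin, followed the same order of arrays as Hp over a smaller range. Its level was 14.43 in untreated cells, 13.54 with AR7, 15.11 with CA39 and 13.49 with CA77. It was 1.85-fold lower with AR7, 1.92-fold lower with CA77 and 1.59-fold higher with CA39, so no difference from untreated passed 2-fold. CA39 was 2.96-fold above AR7 and 3.06-fold above CA77. The other Cp probe gave the same order, at 9.55, 9.01, 10.31 and 8.90. It differed from untreated by -0.54 (AR7), 0.76 (CA39) and -0.65 (CA77). Steap4, a metalloreductase that passes electrons to iron and copper, read 5.05, 5.59, 5.85 and 4.99 and stayed near background on every array, so no difference is given.

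**Figure D3:**
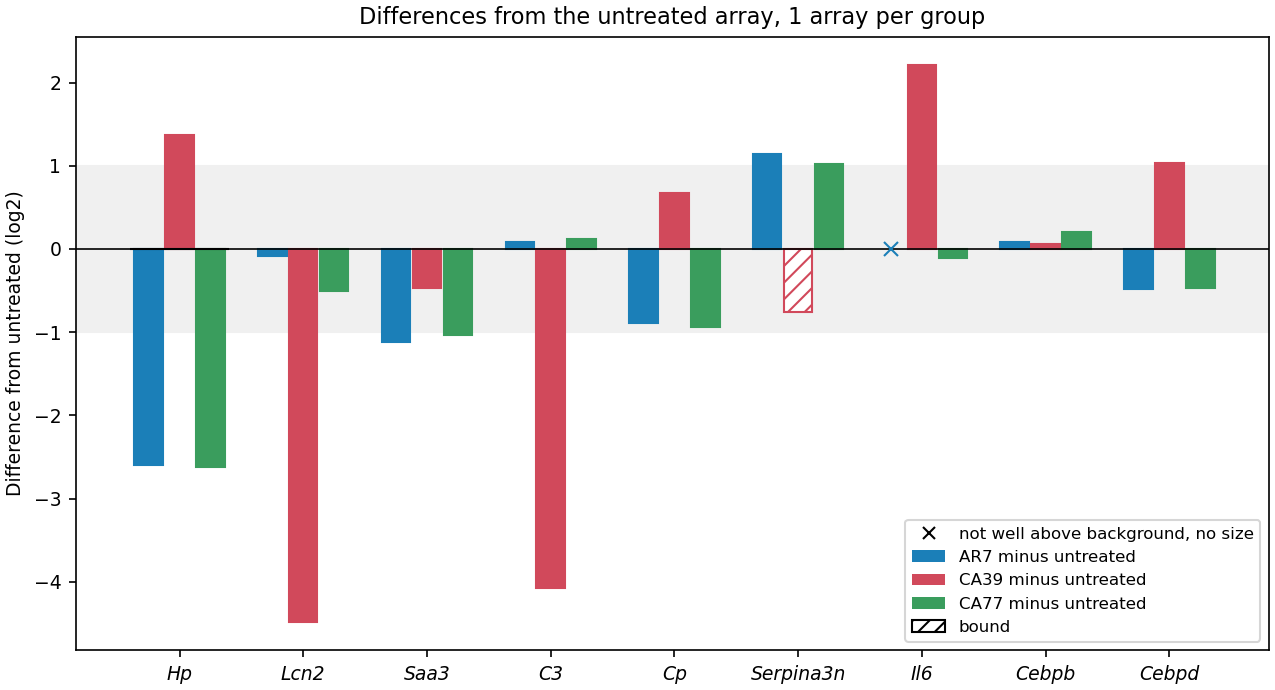
Log2 difference of each treated array from the untreated array (y axis) for the brightest probe of each member (x axis), with hatched bars for bounds and crosses where no size can be given. Hp is below 0 with AR7 and CA77 and above 0 with CA39, and the CA39 bars of Lcn2 and C3 reach -4.49 and -4.07.

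C3 encodes the central component of complement, on which its activation routes converge. Its brightest probe was printed 10 times on each array, so the values carry an error over spots. The level was 16.72 ± 0.09 in untreated cells, 16.80 ± 0.12 with AR7, 12.65 ± 0.09 with CA39 and 16.84 ± 0.10 with CA77 (SD over 10 spots of 1 array). The CA39 spots lay far below all spots of the other arrays. Their median net signal was 6906.5 scanner units, against 112760.5 on untreated, 122258.5 on AR7 and 110667.5 on CA77. Taken spot by spot at the same place of the grid, the CA39 difference was -4.07 ± 0.05 (SD, 10 spots) and ran from -4.12 to -3.96. C3 was 16.82-fold lower with CA39, the 11th lowest difference of 21393. It differed by 0.08 with AR7 and 0.12 with CA77, both within the tolerance, which was set for single spots. Spot by spot, these differences ran from 0.03 to 0.14 with AR7 and from 0.06 to 0.16 with CA77. The other C3 probe read 15.38, 15.51, 11.50 and 15.46 and was 14.68-fold lower with CA39.

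**Figure D4:**
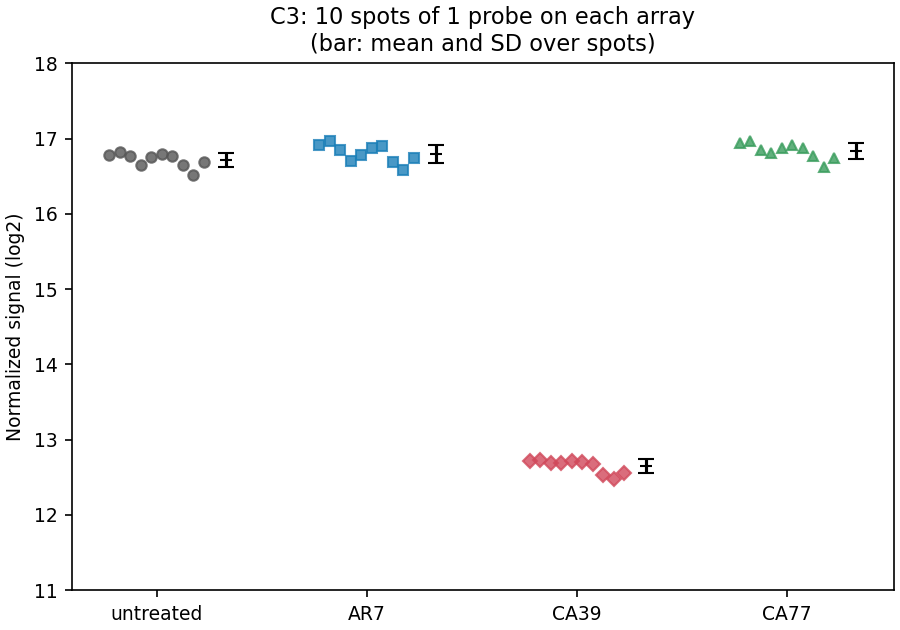
Normalized signal (log2, y axis) of the 10 spots of the brightest C3 probe on each array (x axis), with the mean and SD over spots. The CA39 spots lie near 12.65 and those of the other arrays between 16.51 and 16.97, and the spots are repeats within an array, not replicate cultures.

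Saa3 encodes serum amyloid A3, a lipid-binding acute-phase protein made in many tissues outside the liver. Its level was 11.57 in untreated cells, 10.45 with AR7, 11.10 with CA39 and 10.53 with CA77. All treated arrays were lower than untreated, AR7 by 2.17-fold, CA77 by 2.05-fold and CA39 by 1.38-fold. Saa3 was thus the 1 member that was lower beyond the tolerance with all 3 compounds by a measured difference, and a solvent effect cannot be told apart there. It had the 38th lowest difference with AR7 and the 83rd lowest with CA77.

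Serpina3n, an inhibitor of serine proteases such as granzyme B and elastase, belongs to a cluster of near-identical genes, so the copy that the probe measured is uncertain. Its level was 7.63 in untreated cells, 8.77 with AR7 and 8.66 with CA77, and the CA39 value (4.63) was not well above background. The AR7 and CA77 arrays were high, by 2.20-fold and 2.03-fold over untreated. Against the signal floor of the CA39 array, taken as the 1st percentile of signal among probes well above background, the untreated level was at least 1.70-fold higher, AR7 at least 3.73-fold and CA77 at least 3.45-fold. With an offset of 50 added in the background correction, Serpina3n no longer passed 2-fold with AR7 (0.97) or CA77 (0.87).

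Il6, the cytokine that drives much of the acute-phase response, was near background except with CA39. Its probe, printed in 2 spots, read 6.66 in untreated cells, 8.88 with CA39 and 6.56 with CA77, while the AR7 array (6.17) was not clear of background. The net signals were 122.25, 95, 511.75 and 101 scanner units on untreated, AR7, CA39 and CA77, so the CA39 array alone was clearly raised. Il6 was 4.64-fold higher with CA39 than in untreated cells, the 169th highest difference of 21393, and differed by -0.10 with CA77. At this low signal the size depended on the background correction, and the CA39 difference of 2.22 (log2) became 2.81 with the scanner software's processed signal and 1.78 with an offset of 50. CA39 was 4.99-fold above CA77 and at least 4.16-fold above AR7.

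Cebpb and Cebpd encode C/EBPβ and C/EBPδ. The level of Cebpb was 15.22 in untreated cells, 15.30 with AR7, 15.28 with CA39 and 15.43 with CA77, so the arrays stood close together. CA77 alone lay beyond the tolerance of untreated, by 0.21. With the scanner software's processed signal this difference was 0.14, within the tolerance. Cebpd read 13.94, 13.46, 14.98 and 13.47 in the same order. It was high with CA39 (2.05-fold over untreated) and lower with AR7 (1.40-fold) and CA77 (1.39-fold). The CA39 difference lay at the threshold: it was 1.03, and 0.94 in the deposited background-subtracted values scaled to the 75th percentile. Hp, Cp and Cebpd had in common that CA39 was highest, untreated next, and AR7 and CA77 lowest and within the tolerance of each other.

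The compounds were compared with each other at their single dose and time, in 3 pairs. Between AR7 and CA77, 0 of 9 members passed 2-fold in either direction, beside 1.4% higher and 1.16% lower of 25344 gene names. Of the 8 members measured on both arrays, 7 lay within the tolerance, as did 13673 of all 21561 gene names so measured. Most gene names thus did the same. Il6 has no known difference there, since it was undetected with AR7. With 1 array for each, this does not show that AR7 and CA77 act alike. Between AR7 and CA39, 3 members were higher with AR7 (Lcn2, C3 and Serpina3n) and 4 were lower (Hp, Cp, Il6 and Cebpd), beside 2.43% and 3.72% of 23075 gene names. Between CA39 and CA77, the same 4 were higher with CA39 and the same 3 were lower, beside 3.98% and 2.24% of 25457. Saa3 and Cebpb were within 2-fold in all 3 pairs. The pairs share arrays and are not independent.

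**Figure D5:**
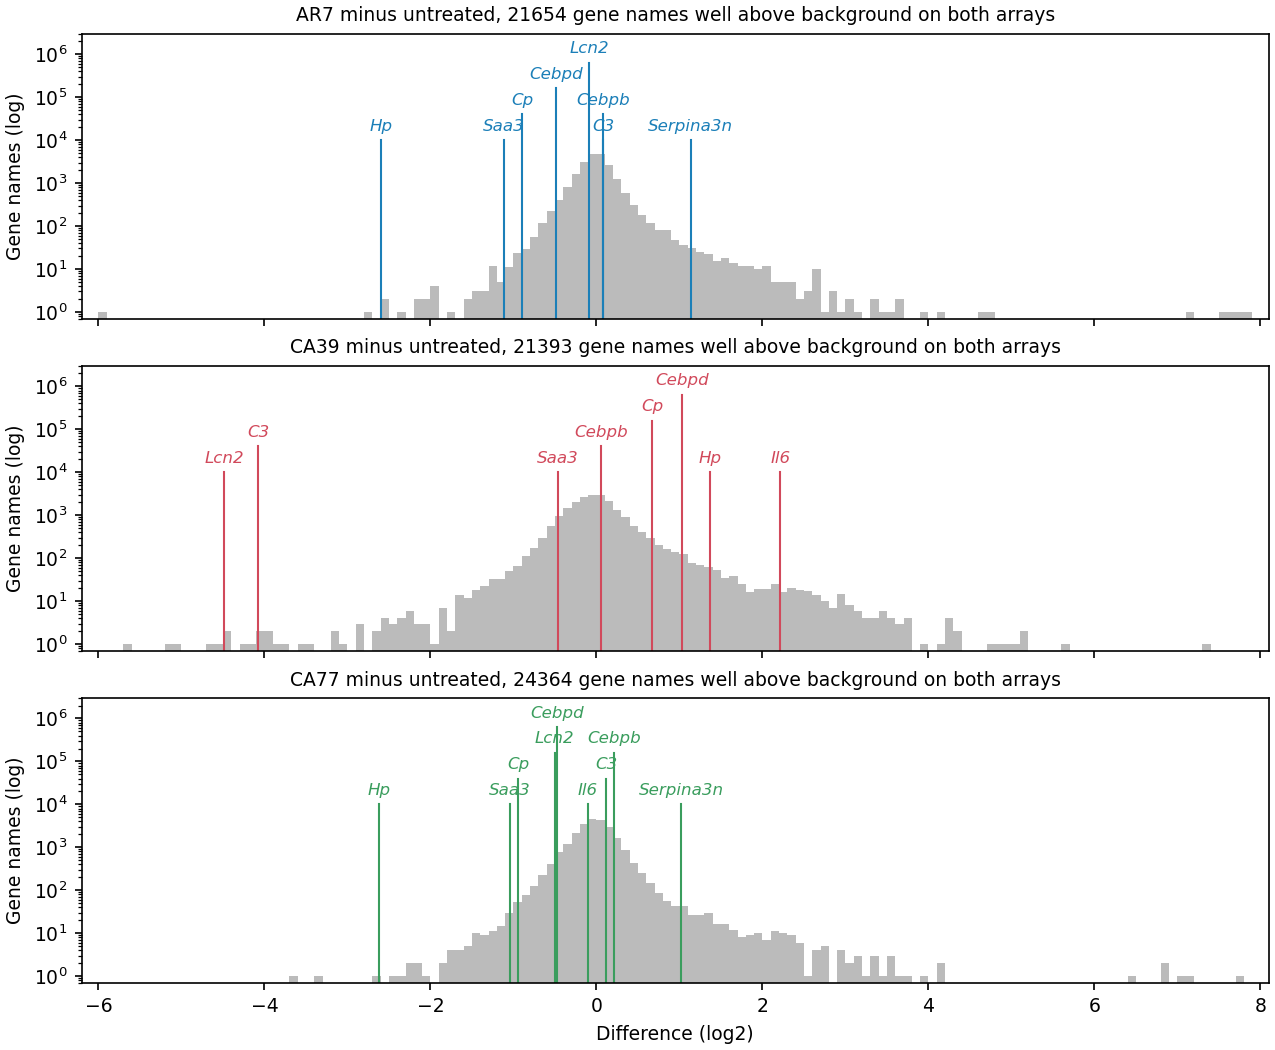
Distribution of log2 differences from untreated (x axis) over gene names well above background on both arrays (y axis, count on a log scale), 1 panel per compound, with members marked. Hp lies in the lower tail with AR7 and CA77, where it is the 3rd lowest, and Lcn2 and C3 lie in the lower tail with CA39.

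Other genes of the response were taken from 6 lists with 100 genes in all, of which 99 were on the arrays. With AR7, 0 of 81 compared were past 2-fold in either direction, and with CA77, 0 of 82. With CA39, 10 of 83 were higher and 9 lower, with a median of 0.00. The shares over all gene names are those given above. Values below that lie outside the rule for naming genes, the 6 largest measured differences, were chosen after they were seen.

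In the IL-6 family and STAT3 list, 1 of 19 genes was higher with CA39 and 1 was lower, with a median of 0.00. The higher one was Osmr, the oncostatin M receptor (1.10), and the lower one was Lif, a cytokine of the family (-1.24). Stat3 itself differed by 0.96 and its target and inhibitor Socs3 by 0.54, both higher with CA39. The receptor chains Il6ra and Il6st were lower, at -0.82 and -0.72. In the C/EBP family, 0 of 5 other genes passed 2-fold in any treated culture, and the largest difference was that of Ddit3, a stress-induced member, at 0.83 with CA39.

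In the IL-1 and NF-κB list, 0 of 19 genes were higher with CA39 and 6 were lower, with a median of -0.14, against 0.09 with AR7 and 0.09 with CA77. Nfkbia, which encodes the NF-κB inhibitor IκBα and is itself an NF-κB target, read 16.32 in untreated cells, 16.48 with AR7, 14.78 with CA39 and 16.68 with CA77. Tnfaip3, the deubiquitinase A20, read 12.76, 12.23, 11.08 and 12.37. Both were lowest with CA39, at -1.54 and -1.68 against untreated. The others were Nfkbiz (-1.27), Nfkbie (-1.15), Relb (-1.07) and Il1a, a bound of -1.23. Rela, the main activating subunit, differed by -0.14 with CA39.

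In the complement list, 1 of 9 genes was lower with CA39. It was C1s1, a protease of the classical pathway, which read 14.69, 14.60, 13.37 and 14.70 on untreated, AR7, CA39 and CA77, a difference of -1.32 with CA39. In the list of hepatic acute-phase proteins, 0 of 18 were lower with CA39, and the median was -0.06. Serpina1a, an α1-antitrypsin gene of a multicopy family whose copies the probe may not separate, read 8.16, 7.96, 11.29 and 7.93, a difference of 3.13 with CA39. Its other probe gave 1.98. Lbp, which binds bacterial lipopolysaccharide, was higher with CA39 by 1.20.

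In the list of haem, iron and siderophore partners, 5 of 13 genes were higher with CA39 and 1 was lower, with a median of 0.16. Heph, the membrane ferroxidase hephaestin and a relative of Cp, read 9.25, 9.69, 11.91 and 10.04, a difference of 2.67 with CA39. A dimmer Heph probe gave 0.66 and another was undetected throughout. Hmox1, the haem-degrading oxygenase, was higher by 1.21, the iron exporter Slc40a1 by 1.13 and Lrp1, which takes up haem bound to haemopexin, by 1.11. Hephl1 was higher by a bound of 1.52, and transferrin (Trf) was lower, a bound of -1.07. Cd163, the macrophage receptor for haptoglobin bound to haemoglobin, was detected on none of the arrays.

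Markers were read for the labelled cell type and for other cells that make acute-phase proteins. Of 8 fibroblast markers, 7 were well above background on the untreated, AR7 and CA77 arrays and 8 on CA39, and their summed linear signal was 962882, 813846, 1241342 and 853845 on untreated, AR7, CA39 and CA77. Like Hp, this sum was highest with CA39 and lower with AR7 and CA77 than in untreated cells. It is weighted to the brightest probes, and the markers did not all share this pattern. Col1a1, Col1a2, Col3a1, Fn1 and Thy1 did. S100a4 was lowest with CA39 (-0.22 against untreated), and Vim was not lower with CA77 (0.06). Of 6 hepatocyte markers on the arrays, 3 were detected on each array (Afp, Apob and Cyp2e1), while the defining Alb, Ttr and Apoa1 were detected on none. The summed signal of the 6 was 19260, 27666, 9924 and 24293, and it was almost wholly that of Afp, which read 14.19, 14.73, 13.21 and 14.54 and was lowest with CA39, as were Lcn2 and C3. Apob read 7.51, 7.18, 7.31 and 6.99 and Cyp2e1 read 7.92, 7.83, 7.66 and 7.85, and neither was higher with AR7 or CA77 than in untreated cells. Of 5 macrophage markers, 3 to 5 were detected, with sums from 7242 (CA77) to 10938 (CA39). Of 6 adipocyte markers, 2 to 4 were detected, with sums from 1241 (CA39) to 2967 (untreated), and Adipoq and Cfd were detected on none. The part of these markers in the members' differences was not tested, and in RNA of a whole culture fewer cells of a kind and less RNA per cell cannot be told apart.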

How the data were processed

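The authors labelled total RNA with Cy3, hybridised it to Agilent mouse 8x60K arrays and read the scans with Feature Extraction 10.7.3.1. Each deposited scanner table gives linear spot intensities with local background and quality marks. The deposited series table held the background-subtracted intensity of the same 62976 spots per array, unscaled, whereas the labels and methods name RMA in the oligo package, with no version given in the sources used here.

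Spot median and background median were corrected by normexp in limma 3.58.1 (R 4.3.3) with an offset of 0. Control spots were then left out and arrays were quantile normalized, which forces 1 distribution on all arrays. Flagged spots (142 to 328 per array) were dropped, no spot was saturated (0), and the spots of a probe were averaged. Probes were named through accessions in a RefSeq table (GRCm38.p6), which named 27506 of 55378 probes. The array design cites an earlier build, so no probe coordinates are given. A gene was read from its brightest probe. Values below detection were set to the 1st percentile of detected signal on its array (5.88, 6.82, 6.87 and 6.26, log2, on untreated, AR7, CA39 and CA77) unless already higher, and the difference is then a bound. Ranks use differences measured on both arrays. With 1 array per group there was no test, and the number of arrays limits the precision. The calculation was tested on simulated data, with changes planted only in bright probes detected on all arrays. Bounds at low signal and variation between cultures were not covered by it.

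The members and lists were chosen with earlier results of these data known. The rule for naming covered all members with every probe, up to 6 list genes per comparison by size of the measured difference, and the 5 genes nearest to Hp over the 3 differences. Alternatives changed the background correction, scaling, floor, filter, threshold and local neighbourhood. Cells treated with other agents were not analysed here. Some list genes are counted in the totals over all lists but are not reported here.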

Additional observations from a re-analysis of the deposited data

How the results depend on the processing

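No paired analysis was possible because each group had 1 array, and for the same reason no array could be left out. Of 258 recomputed differences of member probes, 242 stayed within the tolerance of the main value, 16 moved beyond it and 0 changed sign with a difference past 2-fold. Of 93 that belonged to differences past 2-fold, 93 kept their sign and 88 passed 2-fold again. A change of floor or of detection filter cannot alter a difference measured on both arrays. Part of the agreement in these counts was therefore fixed in advance. The exceptions were Cebpd with CA39, at 0.96 and 0.94 under the scalings to the 75th percentile, and 0.997 with neighbouring spots subtracted, and Serpina3n with an offset of 50, at 0.97 with AR7 and 0.87 with CA77. Hp ranged from -2.71 to -2.48 with AR7, from 1.32 to 1.47 with CA39 and from -2.81 to -2.51 with CA77. Il6 with CA39 ranged from 1.78 to 2.81, and Serpina3n with CA39 from -0.57 to -3.01, the latter without a floor. The CA39 split of 3 higher and 2 lower became 2 and 3 under the 75th percentile scalings and 3 and 3 with a lower floor or none. It became 2 and 2 with neighbours subtracted or over the 7 members detected on all arrays. The AR7 and CA77 splits of 1 higher and 2 lower became 0 and 2 with the offset or over those 7. At 1.5-fold, 4 members passed with AR7, 7 with CA39 and 4 with CA77. Low signal limits Il6, Serpina3n and Steap4, whose values lie near background on 1 or more arrays. The cause of these changes was not tested.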

Other observations

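Among 13015 other named genes well above background on all 4 arrays, the 5 whose differences from untreated were nearest to those of Hp were Hbq1b, Camk2b, Meox2, Itgbl1 and Serpina9, at Euclidean distances of 1.55, 1.81, 1.82, 1.93 and 2.10 (log2) over the 3 differences, which share the untreated array. Hbq1b, a theta-globin gene, differed by -1.94 (AR7), 2.41 (CA39) and -1.67 (CA77). Meox2, a homeobox transcription factor, differed by -1.41, 1.06 and -1.28. Itgbl1, an extracellular integrin-like protein, differed by -1.80, 2.52 and -1.29. Camk2b, a calcium-dependent kinase subunit, and Serpina9, a serine protease inhibitor, were lower with AR7 (-1.51 and -1.22) and CA77 (-1.43 and -1.41), and their differences with CA39 were 0.53 and 0.35, both under 2-fold.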
